A study of Mus musculus with 6 samples.

Results

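The genes described here build, regulate, move and store cholesterol. They are 27 genes chosen by role and found as single rows among the 55487 genes of the deposited count table: 4 regulators, 8 enzymes from acetyl-CoA to isoprenoids, 11 enzymes from squalene to cholesterol, and 4 genes of transport or esterification. No lipoprotein receptor is among the 27, and receptors and their adaptors are taken up in a further list. RNA was sequenced from 4T-1 cells, which derive from a mammary carcinoma of the mouse and spread readily when implanted. One group was wild type (n = 3) and the other was knocked out for Lyplal1 (n = 3), with no treatment in either. The library names carry NC for the wild-type group and sg2 for the knockout group. Neither what the codes stand for nor whether the knockout line is a single clone is given in the labels. The series title links LYPLAL1 to removal of palmitate from the DNA sensor cGAS. Nothing in the labels says that the libraries of a group came from separate cultures, so the p-values measure only the spread between these libraries, which may be technical.

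Cholesterol is made in the endoplasmic reticulum. Enzymes of the mevalonate pathway first build isoprenoid units, which also feed protein prenylation, dolichol and ubiquinone, and the sterol branch then turns farnesyl diphosphate into squalene, lanosterol and finally cholesterol. SREBP2, the product of Srebf2, is a membrane-bound transcription factor that drives most of these genes. When sterols are scarce SCAP escorts it to the Golgi for cleavage, and when sterols are plentiful INSIG proteins hold the SCAP and SREBP2 complex in the endoplasmic reticulum. Excess cholesterol is esterified by SOAT1 or exported by the transporters ABCA1 and ABCG1, whose genes respond to the oxysterol receptors called LXR. Mammary carcinoma cells use the pathway for membranes and for prenylated signalling proteins.

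Libraries held 16731209 to 17108975 counts. Lyplal1 RNA remained, at 68 to 76 counts in wild-type and 48 to 58 counts in knockout libraries, and its log2 fold change of -0.28 ± 0.15 (SE) missed the threshold (edgeR adjusted p = 0.0886). It was called lower with upper-quartile factors (log2 fold change -0.41, edgeR adjusted p = 0.014). The TPM scale also called it lower, by -0.44 with a pseudocount of 1 (limma-trend adjusted p = 0.000797) and by -0.48 with a pseudocount of 0.1 (limma-trend adjusted p = 0.000934). An edited gene can keep its RNA, so this level does not check the genotype labels. All 5 mammary epithelial markers (Epcam, Krt8, Krt18, Krt19 and Cdh1) were detected in both groups, at summed levels of 3110 to 3197 CPM (counts scaled to library size) in wild type and 1710 to 1730 CPM in knockout. Knockout libraries also held RNA of lung epithelial markers (5 of 5 with counts, among them Sftpc and Scgb1a1), at summed levels of 38.8, 44.6 and 155 CPM in replicates 1 to 3 against 0.112 to 0.223 CPM in wild type. Leukocyte markers summed to 443 to 499 CPM in knockout and 8.29 to 8.59 CPM in wild type, nearly all of it from Cd68, while the defining leukocyte marker Ptprc had 1 to 7 counts in every library. The 4 endothelial markers stood at 1.06, 1.56 and 6.48 CPM in the knockout libraries. Knockout replicate 3 therefore stood apart from its group, 3.71 times the mean of the other knockout libraries for the lung markers, whereas the 26 tested cholesterol genes lay between 0.62 and 1.14 times that mean.

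The cholesterol genes did not move as a block. Of 26 that passed the filter on low counts, 9 rose in knockout, 14 fell and 3 were not called (edgeR quasi-likelihood test, p-values adjusted over 13022 genes and called under 0.05). Across all tested genes 82.3% were called, 41.3% as higher and 40.9% as lower, so a called share of 88.5% among these genes lies near the background. Their median log2 fold change was -0.20, against -0.0012 for all tested genes. Changes were mostly modest: 4 of 26 (15.4%) passed a 2-fold change, against 28.1% of all tested genes, namely Abcg1 and Ebp upward and Stard4 and Acat2 downward. Groups did not overlap for 23 of 26 genes (88.5%), compared with 83.1% of all tested genes. In a test against a 1.2-fold change 7 were higher and 9 lower, 16 in all, where the background was 64.3%. Without knockout replicate 3 the counts were 8 higher and 13 lower, with a background of 80.9%. These are bulk libraries, in which fewer cells of a type and less RNA per cell cannot be told apart.

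**Figure D1:**
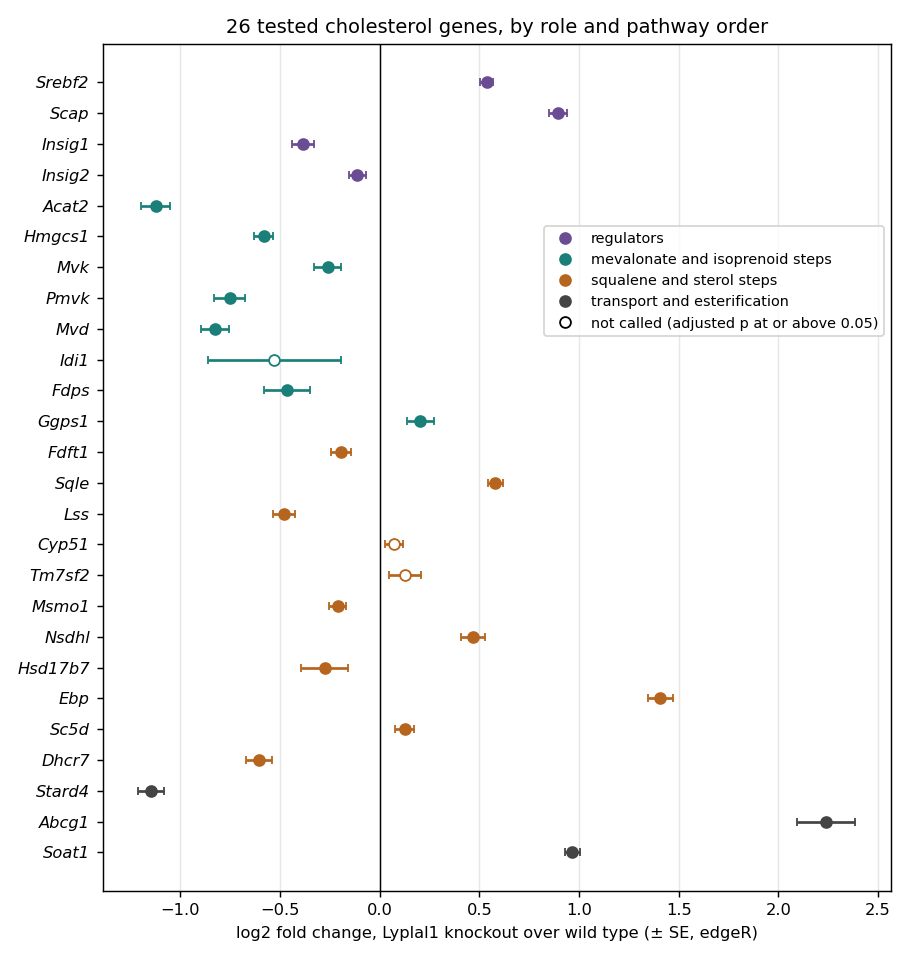
Log2 fold change of knockout over wild type (x axis, ± SE from edgeR) for the 26 tested genes, in pathway order from top to bottom and coloured by role; open circles were not called. All but 1 of the 8 genes from Acat2 to Ggps1 lie left of 0, while the genes from squalene to cholesterol lie on both sides, with Ebp farthest right among enzymes at 1.41.

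Among the regulators, Srebf2 and Scap, which activate the pathway, rose, Insig1 fell, and Insig2 fell by a small amount that was not called under every setting. Srebf2 (ENSMUSG00000022463, chromosome 15, 82147181 to 82205379, GRCm38) stood at 265, 251 and 266 CPM in wild-type replicates 1 to 3 and at 378, 372 and 385 CPM in knockout replicates 1 to 3. All knockout libraries lay above all wild-type libraries, and its rise was 1.45-fold (log2 fold change 0.54 ± 0.033, SE, edgeR adjusted p = 4.22e-14). Scap (chromosome 9, 110333288 to 110384950), the sterol-sensing escort, went from 85.1, 80.6 and 88.5 CPM to 151, 153 and 169 CPM. That is a 1.86-fold rise, with the highest value in knockout replicate 3 and no overlap. Scap exons overlap by 985 bp a gene model on the opposite strand, 5830462I19Rik, which had 6 counts over the wild-type and 25 over the knockout libraries.

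Insig1 (chromosome 5, 28071363 to 28078662) encodes the retention protein whose own gene SREBP2 activates. It fell from 47, 45.2 and 47.7 CPM to 37.7, 34.9 and 34.5 CPM, without overlap, at a log2 fold change of -0.38 ± 0.055 (edgeR adjusted p = 4.13e-07). Its paralogue Insig2 (chromosome 1, 121304353 to 121332589) differed by less, with 86.4, 86.5 and 84.5 CPM in wild-type cells and 77, 80.8 and 80.4 CPM in knockout. The Insig2 log2 fold change of -0.11 ± 0.042 passed the threshold (edgeR adjusted p = 0.0166), but not without a filter on low counts (adjusted p = 0.0858), without knockout replicate 1 (adjusted p = 0.1) or against a 1.2-fold change (adjusted p = 1.0). On the TPM scale, which divides by gene length so that genes can be compared, Insig2 was the more abundant of the pair, at 105 ± 1.88 TPM in wild type against 64.2 ± 1.58 TPM for Insig1 (SD, n = 3 each). The ratio of Insig1 to Insig2 TPM was 0.611, 0.587 and 0.634 in wild-type cells and 0.55, 0.485 and 0.483 in knockout. The ratio of Scap to Insig1 TPM was 0.741 to 0.77 in wild-type cells and 1.66 to 2.03 in knockout, so the balance of escort to retention message lay higher in every knockout library.

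**Figure D2:**
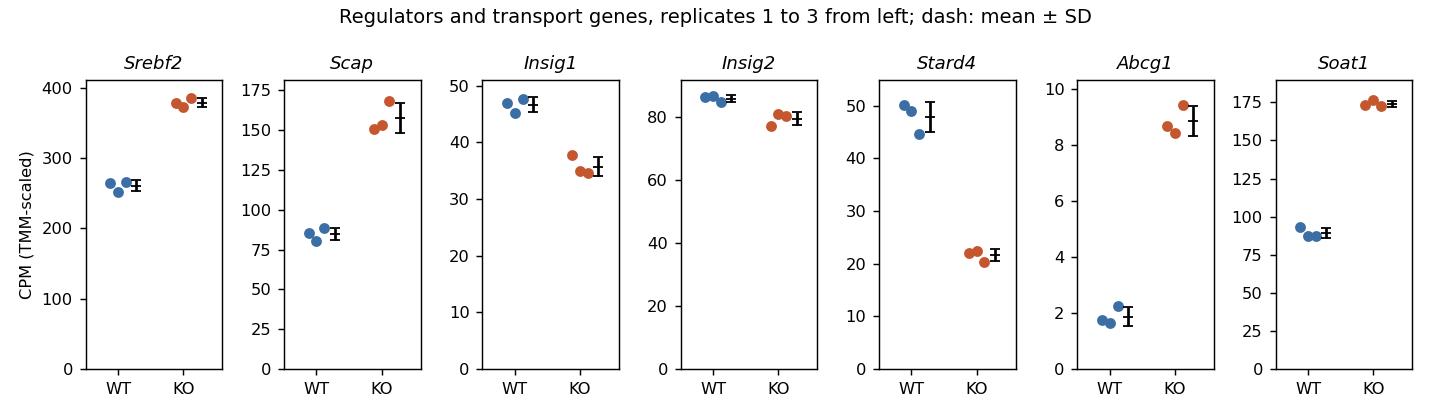
CPM (y axis, each panel from 0) in every library for the 4 regulators and for Stard4, Abcg1 and Soat1; blue points are wild-type and orange points knockout replicates, and the dash with a bar is the mean ± SD. Srebf2, Scap, Abcg1 and Soat1 are higher in all 3 knockout libraries, and Insig1, Insig2 and Stard4 are lower in all 3.

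Most genes of the first stage of synthesis were lower in knockout. Of 8 genes from acetyl-CoA to geranylgeranyl diphosphate, 6 fell, 1 rose and 1 was not called, with a median log2 fold change of -0.56. Over all tested genes 40.9% fell and 82.3% were called, so the called share of 87.5% is near the background, and with 8 genes the direction is a description of this list. Their summed level was 316 ± 5.83 TPM in wild-type cells and 180 ± 4.49 TPM in knockout (SD, n = 3 each). The TPM scale set the median of all tested genes 0.19 lower on the log2 scale than the CPM used for the tests.

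Acat2 (ENSMUSG00000023832, chromosome 17, 12942890 to 12960747), the cytosolic thiolase that joins acetyl-CoA units, showed the largest fall of the stage. It went from 31.4, 32.5 and 29.9 CPM to 13.7, 15.3 and 14 CPM, 2.18-fold higher in wild-type cells (log2 fold change -1.12 ± 0.071, edgeR adjusted p = 5.27e-14). Of the stretches of 50 bases in its transcripts, 39.1% also occur in another gene, chiefly its paralogue Acat3, which had 43 counts over the wild-type and 13 over the knockout libraries. How reads that map to several places were counted is not given in the sources used here, so the level of Acat2 is less certain than its direction.

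Hmgcs1 (chromosome 13, 119690379 to 119708260) encodes the synthase that makes HMG-CoA, the precursor of mevalonate. It went from 69.6, 67.5 and 69.4 CPM to 45.7, 47.1 and 45.2 CPM, at a log2 fold change of -0.58 ± 0.047. The groups stood well apart, with less than 3 CPM between libraries of a group. Mevalonate kinase, Mvk, was 1.2-fold higher in wild type, with 24.9, 24.5 and 24.1 CPM there and 18.9, 20.9 and 21.5 CPM in knockout. The next kinase, Pmvk, fell further, from 24.2, 22.8 and 25.4 CPM to 13.8, 15.6 and 13.6 CPM (log2 fold change -0.75 ± 0.077). Mvd (chromosome 8, 122433601 to 122443422), the decarboxylase that yields isopentenyl diphosphate, fell from 29.3, 27.9 and 29.6 CPM to 16.4, 14.8 and 17.7 CPM. Its log2 fold change was -0.83 ± 0.072 (edgeR adjusted p = 5.20e-11). All 3 genes from Mvk to Mvd fell, and of them only Mvk did not pass the test against a 1.2-fold change (edgeR adjusted p = 0.348).

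Idi1, the isomerase of isopentenyl diphosphate, was scarce, with 23, 11 and 21 counts in wild-type cells and 15, 11 and 8 in knockout. Its groups overlapped and it was not called (log2 fold change -0.53 ± 0.34, edgeR adjusted p = 0.146), although without wild-type replicate 2 it was (log2 fold change -0.79, adjusted p = 0.0376). Fdps, the farnesyl diphosphate synthase, had 150, 140 and 127 counts in wild-type cells and 84, 94 and 92 in knockout, a log2 fold change of -0.47 ± 0.11. Parts of both transcripts occur elsewhere, 25.3% of the 50-base stretches of Idi1 and 26.2% of those of Fdps, mostly in gene models with provisional names. Per length both were among the lowest of the synthesis genes, at 1.25 ± 0.435 TPM for Idi1 and 7.88 ± 0.662 TPM for Fdps in wild type.

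Ggps1 makes geranylgeranyl diphosphate for protein prenylation and lies off the route to sterols. It was the single gene of the stage called higher, at 30.2, 27.6 and 26.4 CPM in wild-type cells and 35.1, 32.3 and 29.6 CPM in knockout. The groups overlapped (log2 fold change 0.2 ± 0.068, edgeR adjusted p = 0.00843), and the call was lost with upper-quartile factors (0.07, adjusted p = 0.345), on log2(TPM + 1), where the sign turned (-0.0052, limma-trend adjusted p = 0.953), and without wild-type replicate 3 or knockout replicate 1 (edgeR adjusted p = 0.0559 and 0.0753).

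**Figure D3:**
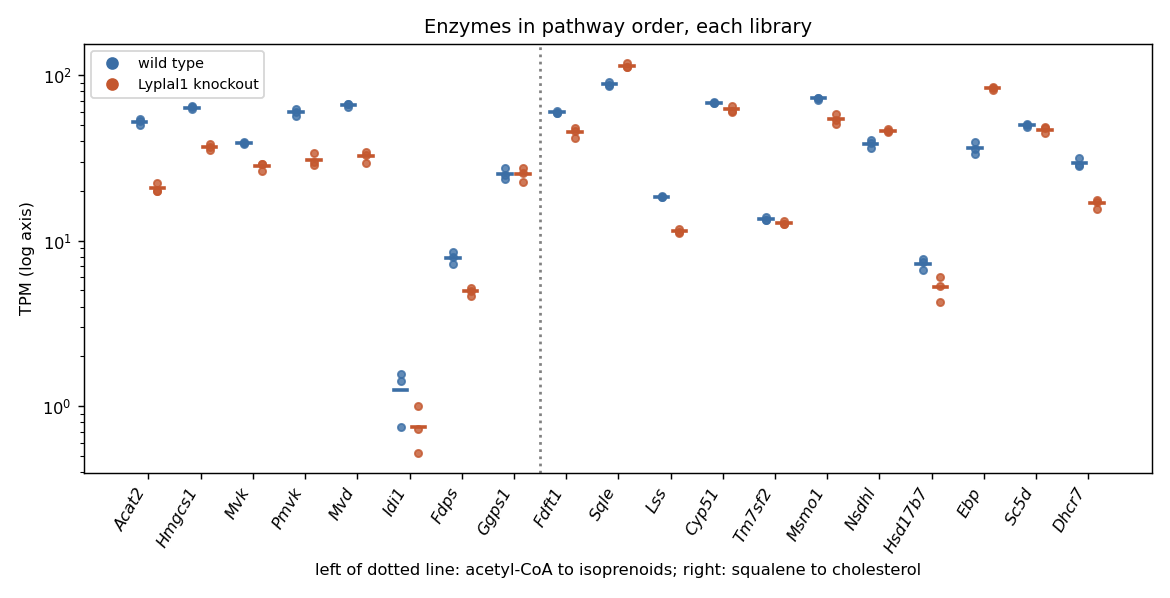
TPM on a log axis for the 19 enzymes in pathway order, with a point for each library (blue wild type, orange knockout) and a line at the mean of each group. The 7 enzymes from Acat2 to Fdps sit lower in knockout, Idi1 with overlapping points, while Sqle, Nsdhl and Ebp sit higher.

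The sterol branch was mixed. Of its 11 genes 4 rose, 5 fell and 2 were not called, with a median log2 fold change of 0.07. Summed TPM was 482 ± 4.28 in wild-type cells and 499 ± 8.84 in knockout (SD, n = 3 each), on this scale a small difference beside the drop of the earlier stage. Over both stages the 19 enzymes summed to 798 ± 9.23 TPM in wild-type cells and 679 ± 11.4 TPM in knockout. The TPM scale set the median log2 fold change of all tested genes 0.19 lower than the CPM used for the tests. Sums on TPM therefore lean toward lower values in knockout, and their size on the CPM scale may differ.

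Squalene synthase, encoded by Fdft1, commits farnesyl diphosphate to sterols. It had 57.1, 58.6 and 57.4 CPM in wild-type cells and 53.1, 50.6 and 47.7 CPM in knockout, a log2 fold change of -0.19 ± 0.05 that did not pass the test against a 1.2-fold change (edgeR adjusted p = 0.857). Its exons overlap by 774 bp those of Ctsb on the opposite strand, a cathepsin gene that rose 3.47-fold, and without the strand setting the reads of the overlap cannot be assigned. Sqle (chromosome 15, 59315077 to 59331192), squalene epoxidase, a rate-limiting enzyme of the branch, went the other way. It had 118, 114 and 113 CPM in wild-type cells and 176, 167 and 172 CPM in knockout libraries (log2 fold change 0.58 ± 0.037, edgeR adjusted p = 9.02e-14), with no overlap. Of the enzymes, Sqle had the highest level per length in both groups, 88.1 ± 2.35 TPM in wild-type cells and 114 ± 3.41 TPM in knockout.

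Lss, the cyclase that forms lanosterol, fell from 46.7, 46.3 and 46.7 CPM to 34.3, 32 and 33.9 CPM (log2 fold change -0.48 ± 0.054). Cyp51, the lanosterol demethylase and a usual marker of SREBP2 activity, was not called. It had 70.2, 70.3 and 72.3 CPM in wild-type cells and 72.4, 77.3 and 73.7 CPM in knockout libraries (log2 fold change 0.07 ± 0.044, edgeR adjusted p = 0.141), and on log2(TPM + 1) it was called lower (-0.135, limma-trend adjusted p = 0.0131). The sterol reductase gene Tm7sf2 was not called either (log2 fold change 0.13 ± 0.079, edgeR adjusted p = 0.14, negative with upper-quartile factors and on TPM), and it shares 532 bp of exon with Vps51. Msmo1, the methylsterol oxidase, was 1.16-fold higher in wild type at 103 to 106 CPM, against 86.4 to 96.2 CPM in knockout.

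The demethylation partners of Msmo1 moved in opposite directions. Nsdhl, a sterol dehydrogenase gene on chromosome X, rose from 27.2, 25.9 and 24.4 CPM to 36.2, 35.5 and 35.7 CPM (log2 fold change 0.47 ± 0.06). Hsd17b7, the ketoreductase, had 143, 158 and 166 counts in wild-type cells and 133, 117 and 95 in knockout. Scaled by library size its groups overlapped, and its call as lower (log2 fold change -0.28 ± 0.12, edgeR adjusted p = 0.0322) was lost with DESeq2 (adjusted p = 0.0939) and, by edgeR, without any filter (0.0527), without knockout replicate 3 (-0.15, 0.234), without knockout replicate 2 (0.0606) and without wild-type replicate 2 or 3 (0.0693 and 0.107).

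Ebp (ENSMUSG00000031168, chromosome X, 8185329 to 8193512) had the largest rise of any enzyme. It encodes the sterol isomerase also known as emopamil-binding protein, and stood at 19.5, 18.1 and 21.6 CPM in wild-type cells and 50.7, 51.9 and 54.4 CPM in knockout. Every knockout library had more than 2 times the level of every wild-type library, and the rise was 2.65-fold (log2 fold change 1.41 ± 0.064, edgeR adjusted p = 3.59e-17). Sc5d, the desaturase acting next, had 55.4 to 58.6 CPM in wild-type cells and 58.7 to 65.1 CPM in knockout. Its call as higher (log2 fold change 0.12 ± 0.049, edgeR adjusted p = 0.0225) was lost under 8 of 17 alternatives, with a negative sign with upper-quartile factors and on TPM, and among the libraries it rested on wild-type replicates 1 and 2 and knockout replicate 3 (adjusted p = 0.0677, 0.109 and 0.0698 without each). Dhcr7, the reductase of a late step whose substrate is also the precursor of vitamin D, fell from 38.3, 39.2 and 43.2 CPM to 27.7, 24.2 and 27.5 CPM (log2 fold change -0.6 ± 0.065). Ebp and Dhcr7, which act within a few steps of each other, therefore changed in opposite directions without overlap.

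Promoter windows of 300 bases, from 250 before to 50 after the start site, were available for 22 of the 27 genes (28 windows, RefSeq, GRCm38.p6). Fdps, Fdft1, Sqle, Stard4 and Abcg1 had no window, so the motif counts do not cover them. The SREBP motif TCACNCCAC, searched on both strands, occurred in 1 of the 28 windows, that of Hmgcs1, and in 1.24% of 32851 windows of all genes. Only this string was searched, with any base at N, so sites that differ from it were not counted. CCAAT, bound by NF-Y, a usual partner of SREBP, was in 19 of 28 (67.9%) against 37.4% of all windows. GGGCGG, bound by Sp1, was in 23 of 28 (82.1%) against 35.7%. The windows of all genes were not limited to genes expressed in these cells. Whether these 2 shares differ from those of other expressed genes was not tested. The LXR motif, AGGTCA repeated after a spacer of 4 bases, was in 0 of 28 and in 5 of all windows. The interferon motif, GAAA repeated after a spacer of 2 bases, was in 2 of 28, those of Ggps1 and Ebp, against 3.44% of all windows. CCAAT matches were present both in genes that fell, such as Mvd, and in genes that rose, such as Ebp. A match is a description of letters, not a bound site. Windows are printed for Hmgcs1, the single gene with a TCACNCCAC match in the windows searched. They are also printed for the genes with a CCAAT match that fell and rose most, a choice made after their values were seen. Capitals mark TCACNCCAC, CCAAT and GGGCGG on either strand, which do not overlap one another in these windows. The Hmgcs1 window is chr13:119690101-119690400 on the plus strand, that of Mvd chr8:122443373-122443672 on the minus strand and that of Ebp chrX:8193463-8193762 on the minus strand.
Hmgcs1: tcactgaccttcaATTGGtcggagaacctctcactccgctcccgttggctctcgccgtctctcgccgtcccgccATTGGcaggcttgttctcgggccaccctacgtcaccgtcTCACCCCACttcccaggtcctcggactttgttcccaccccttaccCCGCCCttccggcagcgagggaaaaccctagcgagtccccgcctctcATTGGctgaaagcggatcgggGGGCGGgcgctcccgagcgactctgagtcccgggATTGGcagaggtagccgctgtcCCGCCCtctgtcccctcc
Mvd: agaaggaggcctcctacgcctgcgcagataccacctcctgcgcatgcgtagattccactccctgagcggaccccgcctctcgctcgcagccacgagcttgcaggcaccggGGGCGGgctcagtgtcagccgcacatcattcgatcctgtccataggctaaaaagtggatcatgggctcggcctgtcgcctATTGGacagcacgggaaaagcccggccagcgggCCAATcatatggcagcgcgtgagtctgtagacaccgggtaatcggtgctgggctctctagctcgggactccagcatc
Ebp: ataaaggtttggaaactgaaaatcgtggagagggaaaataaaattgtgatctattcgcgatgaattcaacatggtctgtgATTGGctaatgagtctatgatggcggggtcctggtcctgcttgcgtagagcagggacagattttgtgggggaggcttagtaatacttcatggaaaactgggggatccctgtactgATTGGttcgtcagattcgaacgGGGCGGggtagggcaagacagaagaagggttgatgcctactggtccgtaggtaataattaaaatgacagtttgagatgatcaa
In the Hmgcs1 window, whose gene fell, the SREBP motif starts 137 bases before the start site and reads TCACCCCAC on the gene's strand. The 4 CCAAT matches lie on both sides of it, and the 3 GGGCGG matches all lie after it. The Mvd and Ebp windows each hold 2 CCAAT matches and 1 GGGCGG match, although Mvd fell and Ebp rose.

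Storage and export genes rose where they could be tested, and the carrier gene fell. Soat1 (chromosome 1, 156424525 to 156474331), which esterifies cholesterol for storage in droplets, went from 93.1, 87 and 87.2 CPM to 174, 176 and 172 CPM. Its rise of 1.95-fold had the smallest adjusted p of all 27 genes (log2 fold change 0.97 ± 0.039, edgeR adjusted p = 2.69e-18). Abcg1 (chromosome 17, 31057675 to 31117988), an exporter of cholesterol to high-density lipoprotein and an LXR target, had 31, 29 and 40 counts in wild-type cells and 139, 135 and 150 counts in knockout. Its log2 fold change of 2.24 ± 0.15 was the largest among these genes, 4.73-fold, yet per length it stayed among the lowest at 4.47 ± 0.189 TPM in knockout. Abcg1 is well expressed by macrophages and in lung, and like the leukocyte and lung marker sums given above it was higher in knockout. Knockout replicate 3 stood at 1.1 times the mean of the other knockout libraries for Abcg1 and at 3.71 times for the lung sum. For the leukocyte sum, nearly all from Cd68, it stood at 1.1 times. The other leukocyte markers did not share the Cd68 pattern. Lyz2 had 1, 0 and 0 counts in wild type and 28, 45 and 263 in knockout replicates 1 to 3. In those knockout libraries Adgre1 had 0, 0 and 8 counts, Ptprc 2, 1 and 4, and Cd3e 0, 0 and 1. The part of these markers in the result was not tested. Without knockout replicate 3 the log2 fold change of Abcg1 was 2.2 (edgeR adjusted p = 5.40e-16), and replicates 1 and 2 hold RNA of the lung markers, Cd68 and Lyz2 too. Abca1, the other LXR-driven exporter, had 1, 3 and 2 counts in wild-type cells and 1, 0 and 3 counts in knockout, too few to test or to give a fold.

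Stard4 (chromosome 18, 33199355 to 33213862), a soluble carrier that moves cholesterol between membranes and an SREBP2 target, fell from 50.1, 48.9 and 44.6 CPM to 22, 22.5 and 20.3 CPM. It was 2.22-fold higher in wild-type cells (log2 fold change -1.15 ± 0.063, edgeR adjusted p = 2.82e-15), the deepest fall of the 27 genes. Stard4, Acat2, Mvd and Pmvk had the 4 largest falls, and Abcg1, Ebp, Soat1 and Scap the 4 largest rises.

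Around the 27 genes, 79 others of sterol biology in 6 lists were counted. Of 73 tested, 40 rose, 21 fell and 12 were not called, a called share of 83.6%, near the background of 82.3%. The counts of each list stand beside 41.3% higher and 40.9% lower over all tested genes, and describe the lists only. Each of these genes named as rising or falling passed the edgeR threshold, with no overlap between groups. With upper-quartile factors the split was 35 higher and 29 lower, and on log2(TPM + 1) 32 and 31, while all tested genes shifted from 5382 higher and 5329 lower to 4630 and 6189, and to 4125 and 6598.

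**Figure D4:**
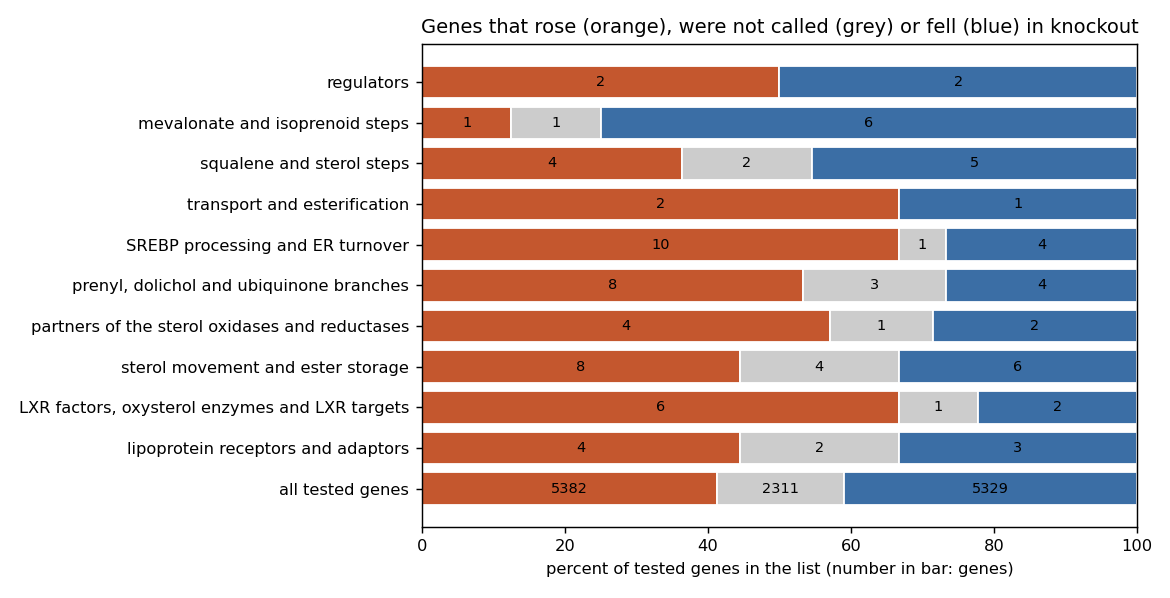
Percent of the tested genes of each list that rose (orange), were not called (grey) or fell (blue) in knockout, with gene numbers in the bars and all 13022 tested genes at the bottom. The mevalonate list has 6 falls among 8 genes, and the list of SREBP processing and endoplasmic reticulum turnover has 10 rises among 15.

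In the list of SREBP processing and endoplasmic reticulum turnover, 10 of 15 rose, 4 fell and 1 was not called, a called share of 93.3% where 82.3% of all tested genes were called and 41.3% rose. Erlin1, a prohibitin-like membrane protein that restrains SREBP activation, rose from 1316, 1365 and 1320 counts to 3897, 4147 and 3806 counts (3.31-fold). Ufd1, a cofactor of the extraction ATPase of the degradation pathway, rose 2.44-fold. Rnf145, a sterol-responsive ubiquitin ligase, fell from 4024, 3854 and 3985 counts to 1748, 1721 and 1695 counts (log2 fold change -1.04 ± 0.036). Srebf1, the paralogue of Srebf2 that leans toward fatty acid genes and is named here after its values were seen, fell at a log2 fold change of -0.73 ± 0.038. The ratio of Srebf2 to Srebf1 TPM was 0.957 to 0.972 in wild-type cells and 2.25 to 2.36 in knockout.

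Branches that use isoprenoids were divided. Of 15 genes for prenylation, dolichol and ubiquinone, 8 rose, 4 fell and 3 were not called (80% called). Trit1, which adds an isopentenyl group to transfer RNA, rose 2.18-fold (log2 fold change 1.13 ± 0.062), and Nus1, a subunit of the enzyme that makes dolichol precursors, 1.65-fold. Fntb, the farnesyltransferase subunit, fell at a log2 fold change of -0.7 ± 0.062, from 722, 659 and 722 counts to 377, 377 and 407 counts.

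Of 7 partners of the sterol oxidases and reductases, 4 rose, 2 fell and 1 was not called (85.7% called). Por, the electron donor of CYP51 and squalene epoxidase, rose 1.49-fold, Pgrmc1, a heme-binding partner of CYP51, 1.82-fold, and Cyb5r3, a reductase of cytochrome b5, 1.24-fold. The Cyb5r3 rise did not pass the test against a 1.2-fold change (edgeR adjusted p = 0.0615). Lbr, which can carry out the same reduction as Tm7sf2 and is named after its values were seen, fell at a log2 fold change of -0.27 ± 0.038. The ratio of Tm7sf2 to Lbr TPM was 0.114 to 0.117 in wild-type cells and 0.145 to 0.157 in knockout, so Lbr was the more abundant message in both groups.

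Of 18 genes for sterol movement and ester storage, 8 rose, 6 fell and 4 were not called (77.8% called). Npc2, the lysosomal carrier that hands cholesterol on for export, rose from 6424, 6366 and 6167 counts to 15189, 15498 and 16618 counts (2.79-fold). Nceh1, a hydrolase of cholesteryl esters, rose 3.02-fold, and Tmem97, a sterol-regulated receptor protein of the endoplasmic reticulum, 2.29-fold. Soat2, the second esterifying enzyme, named after its values were seen, rose from 20, 25 and 14 counts to 66, 57 and 63 counts. Soat1 remained the more abundant by 9.51 to 11.2 times per length in knockout, compared with 14 to 25.1 times in wild type. Genes for making esters (Soat1 and Soat2) and for hydrolysing them (Nceh1) were thus all higher in knockout. Cav1, caveolin, a cholesterol-binding coat protein also named after its values were seen, fell from 1192, 1186 and 1178 counts to 17, 9 and 67 counts. Its log2 fold change was -5.09 ± 0.37, and -6.33 without knockout replicate 3, which had the most counts of its group, as it had for the endothelial and lung markers.

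Of 9 tested genes in the list of LXR factors, oxysterol enzymes and LXR targets, 6 rose, 2 fell and 1 was not called (88.9% called). Known LXR targets moved in both directions. Pltp, the phospholipid transfer protein, rose 3.26-fold and Lpcat3, a phospholipid acyltransferase, 1.51-fold, whereas Mylip, a ubiquitin ligase for lipoprotein receptors, fell from 382, 389 and 418 counts to 152, 125 and 109 counts (log2 fold change -1.46 ± 0.095). Of 9 tested lipoprotein receptors and adaptors, 4 rose, 3 fell and 2 were not called (77.8% called). The endocytic adaptor Dab2 rose from 969, 989 and 993 counts to 2751, 2699 and 2582 counts (3.04-fold). Sorl1, a sorting receptor related to lipoprotein receptors, fell at a log2 fold change of -0.51 ± 0.044.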

How the data were processed

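Counts (whole numbers) and TPM were deposited by the authors for 6 libraries. They named STAR 2.7.8a, featureCounts 2.0.1 and GRCm38 in the submitters' processing notes, and total RNA was taken with Trizol, per the labels' protocols. The sources used here name no annotation release, strand setting or treatment of multiply mapped reads. The 12 files of single libraries held the same values as the tables used. Deposited TPM were proportional to the counts within each gene (tolerance 0.001, 9182 of 9182 genes compared).

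Symbols and positions come from GENCODE M21 (GRCm38), which held 55227 of the 55487 identifiers. Counts were filtered with filterByExpr (13022 genes left), scaled with TMM factors and tested with the quasi-likelihood F test of edgeR 4.0.16 (robust, two-sided). P-values were Benjamini-Hochberg adjusted over all tested genes and called under 0.05. CPM use TMM-adjusted library sizes, and standard errors come from the fold change and its F statistic. Alternatives used DESeq2 1.42.0 and limma 3.58.1 in R 4.3.3, with figures and tables in Python 3.11.15. The test was tried on simulated data. Shared sequence was counted as stretches of 50 bases found in transcripts of other genes.

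The genes and lists were chosen with earlier results of these data known. Named genes are all 27, Lyplal1, and up to 3 called genes without overlap and with the smallest adjusted p in each further list. One gene that this rule takes is not reported here. Marker lists for hepatocytes and adipocytes summed to at most 0.112 and 0.812 CPM in any library, and fibroblast markers, nearly all from Pdgfra, to 67.2 to 70.0 CPM in wild type and 166 to 180 CPM in knockout.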

Additional observations from a re-analysis of the deposited data

How the results depend on the processing

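Of 17 alternatives 16 were planned, and removal of genes raised in knockout replicate 3 was chosen after seeing the data. For 16 of the 26 tested cholesterol genes the direction and call held under all 17. Upper-quartile factors and the TPM scale lowered the median of all tested genes by 0.13 to 0.21 (log2), and the median of the cholesterol genes went from -0.20 to -0.34 with upper-quartile factors, -0.37 on log2(TPM + 1) and -0.41 on log2(TPM + 0.1). With these 3 settings, in that order, the sign turned for Cyp51 (-0.0625, -0.135 and -0.137), Tm7sf2 (-0.0054, -0.0747 and -0.0798) and Sc5d (-0.0087, -0.0824 and -0.0839), and on the TPM scales for Ggps1 (-0.0052 and -0.0055). The cause was not tested. The test against a 1.2-fold change left 9 of 14 falls, since it asks for more than a difference from 0, and the 5 falls not called were Insig2 (edgeR adjusted p = 1.0), Mvk (0.348), Fdft1 (0.857), Msmo1 (0.799) and Hsd17b7 (0.303). The rises not called there were Ggps1 (adjusted p = 0.685) and Sc5d (1.0), and among further genes named Lbr (0.266) and Cyb5r3 (0.0615) were not called. Leaving out each library gave 8 to 9 higher and 13 to 14 lower cholesterol genes, 39 to 41 higher and 20 to 22 lower further genes, and medians of -0.21 to -0.15. With the replicate number as a block 9 were higher and 14 lower, with a median of -0.20, so the block changed no count. Same-numbered libraries did not deviate together over all tested genes (correlations of -0.0074, 0.042 and 0.013). A pairing that acts on few genes would not show in these correlations, so they cannot exclude one. Depth left Abca1, with 6 and 4 counts over the groups, without a test.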

Other observations

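Of the further sterol genes 6 had too few counts to be tested. Ch25h, the interferon-inducible enzyme that makes an oxysterol which blocks SREBP processing, had 0 counts in 5 libraries and 1 count in knockout replicate 3. Cyp7b1, which degrades such oxysterols, had 0 counts in all wild-type libraries and 0, 0 and 3 in knockout, and Cyp27a1, a mitochondrial sterol hydroxylase, had 3, 0 and 0 counts against 2, 0 and 4. Vldlr, a lipoprotein receptor, was at 0 counts in wild type and at 0, 1 and 2 in knockout. Cd36, a scavenger receptor abundant on small-vessel endothelium and macrophages, had 0 counts in wild type and 2, 2 and 45 in knockout. Smpdl3a, an LXR target, had 0 counts in wild type and 2, 3 and 10 in knockout. In all 6 the highest knockout count was in replicate 3, the library with the highest lung and endothelial marker sums, and the part of those markers was not tested.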
